A study of Saccharomyces cerevisiae with 16 samples.

Results

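The transcriptome of budding yeast line 170 was set against that of line WT at 45, 90 and 150 min after methionine was taken out of the medium. The samples were those whose titles give these lines and times, 6 of the 16 arrays of the series, with 1 array per line and time. Both lines lack their own HOG1 and carry a plasmid copy behind the MET3 promoter, which methionine represses and its removal induces. For line 170, one label field gives the allele as D170A+F318L and the others as D170A, so its mutation is not assigned here. The copy in line WT is wild type. The series also holds line H, labelled D170A in one field and only H in the others, and line vec, which carries an empty plasmid, each sampled at the same times. All lines were also sampled at 0 min, before induction. Nothing in the labels says how many cultures or transformants a line stands for. Each array measures a whole culture, so fewer cells that hold a transcript and less transcript per cell cannot be told apart.

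Yeast cells answer high osmolarity through the HOG pathway, at whose end stands the MAP kinase Hog1. Sensor branches under Sln1 and Sho1 lead through kinase cascades to Pbs2, which activates Hog1, and phosphatases switch it off again. Active Hog1 raises genes of glycerol production and uptake and of general stress defence through Hot1, Sko1, Msn2 and Msn4, and it delays the cell cycle at G1 and at G2. Per the title of the series, expression under intrinsically active HOG1 was its object. The comparison therefore asks what the variant copy of line 170 does beyond a wild-type copy when both are induced.

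Levels are given as log2 of the processed spot intensity relative to the array's 75th percentile, which is 0, and differences as line 170 minus line WT on that log2 scale, as the mean of the 3 times ± the standard error from limma. A gene was called at an adjusted p under 0.05 over all 6165 genes tested. The 75th percentile lay at 4926 to 11306 intensity units over the 16 arrays, and 93.4% to 98.8% of spots were well above background, lowest at 45 min in line WT. Lines WT and H were on one slide of 8 arrays and lines 170 and vec on the other, and the slides were scanned on different days. Line, slide and scan therefore cannot be told apart in any difference between line 170 and line WT. Since each culture was sampled once per time, the errors and p-values reflect how line differences varied over the 3 times, pooled over all 4 lines. They do not reflect the spread between cultures, which was not measured. As a list, genes of a-type cells stood above those of α-type cells in both lines. The median level of the a-specific genes at 45, 90 and 150 min was -0.96, -1.17 and -0.65 in line 170 and -0.06, -0.37 and -0.18 in line WT. For the α-specific genes it was -5.98, -6.14 and -5.92 in line 170 and -5.92, -5.83 and -5.83 in line WT. MFA1 stood at 0.76, 0.15 and -0.41 in line 170 and at 1.87, 0.64 and -0.18 in line WT at 45, 90 and 150 min, and the α-factor gene MF(ALPHA)1 at -7.32, -7.77 and -7.18 in line 170 and at -7.77, -7.59 and -7.44 in line WT. Single members of the lists lay close together. In line 170 the a-specific ASG7 stood at -2.73, -2.67 and -2.88 and the α-specific SAG1 at -3.10, -2.85 and -2.71. None of the 4 genes on the α-specific list (MF(ALPHA)1, MF(ALPHA)2, STE3 and SAG1) was called, and other α-specific genes were not on it.

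The introduced gene was induced in both lines. HOG1 (YLR113W) stood at 6.12, 6.004 and 6.16 in line 170 at 45, 90 and 150 min, and at 5.64, 5.49 and 5.74 in line WT. The lines did not overlap, and line 170 was higher by 0.47 ± 0.093 (adjusted p = 0.014), although before removal it was lower, at 1.51 in line 170 and 1.89 in line WT. These 0 min levels lay above the -1.67 of the empty-plasmid line vec at 0 min, so the construct gave signal in methionine too. The call was lost under quantile normalization, which gave the lowest difference of any alternative (0.13), as well as under a threshold of 0.01, without the time term, without 90 min and without 150 min. These levels are relative to each array's 75th percentile. At 45, 90 and 150 min it was 5940, 6376 and 6118 in line 170. In line WT it was higher, at 8298, 9090 and 7904. A higher percentile gives a lower level for the same spot intensity. Whether the unscaled HOG1 intensity differed between the lines was not tested. MET3 (YJR010W), the ATP sulfurylase gene that shares its promoter with the construct, stood at 2.65, 2.59 and 2.88 in line 170 and at 2.71, 1.32 and 2.57 in line WT. Its mean difference of 0.51 ± 0.42 was not called (adjusted p = 0.42). At 90 min alone, MET3 was low in line WT. Whether the low MET3 there goes with other differences at 90 min was not tested.

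Of the 6165 genes, 1096 (17.8%) differed between the lines: 424 (6.88%) were higher in line 170 and 672 (10.9%) lower. All but 1 of the called genes had the same sign at every time. The majority of differences were small, and 81 genes were called at 2-fold or more, 48 higher and 33 lower. At single times, 94 genes (1.52%) were at least 2-fold higher in line 170 at 45 min, 124 (2.01%) at 90 min and 76 (1.23%) at 150 min, and 84, 76 and 103 genes were at least 2-fold lower at these times. The calls depend on the 90 and 150 min arrays. Without the 90 min arrays 0 genes passed (861 at an unadjusted p under 0.05), and without the 150 min arrays 34 passed, while 1413 passed without the 45 min arrays. Some calls lay along the slides. Lines 170 and vec both lay above lines WT and H at all 3 times in 161 of the 424 higher genes (38%), and both below in 246 of the 672 lower genes (36.6%). On either side, this split held for 16.9% of all genes. The split requires 1 sign of 170 minus WT at all 3 times, which nearly all called genes had. Calling itself therefore raises these shares, and an effect of the slides on the calls was not tested.

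Genes known as targets of Hog1 held 3 of the 4 highest differences, with NFG1 as the other. STL1 (YDR536W), which encodes the glycerol symporter of the plasma membrane, stood at -3.54, -1.72 and -2.18 in line 170 at 45, 90 and 150 min, and at -8.48, -5.27 and -3.79 in line WT. In line WT at 45 min it was not well above background. With that value raised to the array's floor, the difference was 4.50 at 45 min, and it was 3.56 at 90 min and 1.61 at 150 min. The fitted mean difference was 3.37 ± 0.81 (adjusted p = 0.027), and with the 45 min value so raised the mean was 3.22. Every array of line 170 lay above every array of line WT, and the gap narrowed as line WT climbed. RTC3 (YHR087W) stood at -0.01, 2.03 and 1.58 in line 170 and at -3.87, -1.53 and 0.68 in line WT, a difference of 2.77 ± 0.70 (adjusted p = 0.030). Line WT came nearest to line 170 at 150 min. HSP12 (YFL014W), a small heat shock protein of membranes, stood at 2.46, 2.29 and 2.21 in line 170 and at -0.36, -0.38 and 0.14 in line WT, a difference of 2.52 ± 0.59 (adjusted p = 0.025). Unlike RTC3, HSP12 in line WT stayed near its 45 min level. GRE2 (YOL151W), a methylglyoxal reductase, stood at 0.74, 2.03 and 2.79 in line 170 and at -1.09, -0.03 and 1.87 in line WT, a difference of 1.60 ± 0.41 (adjusted p = 0.030).

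**Figure D1:**
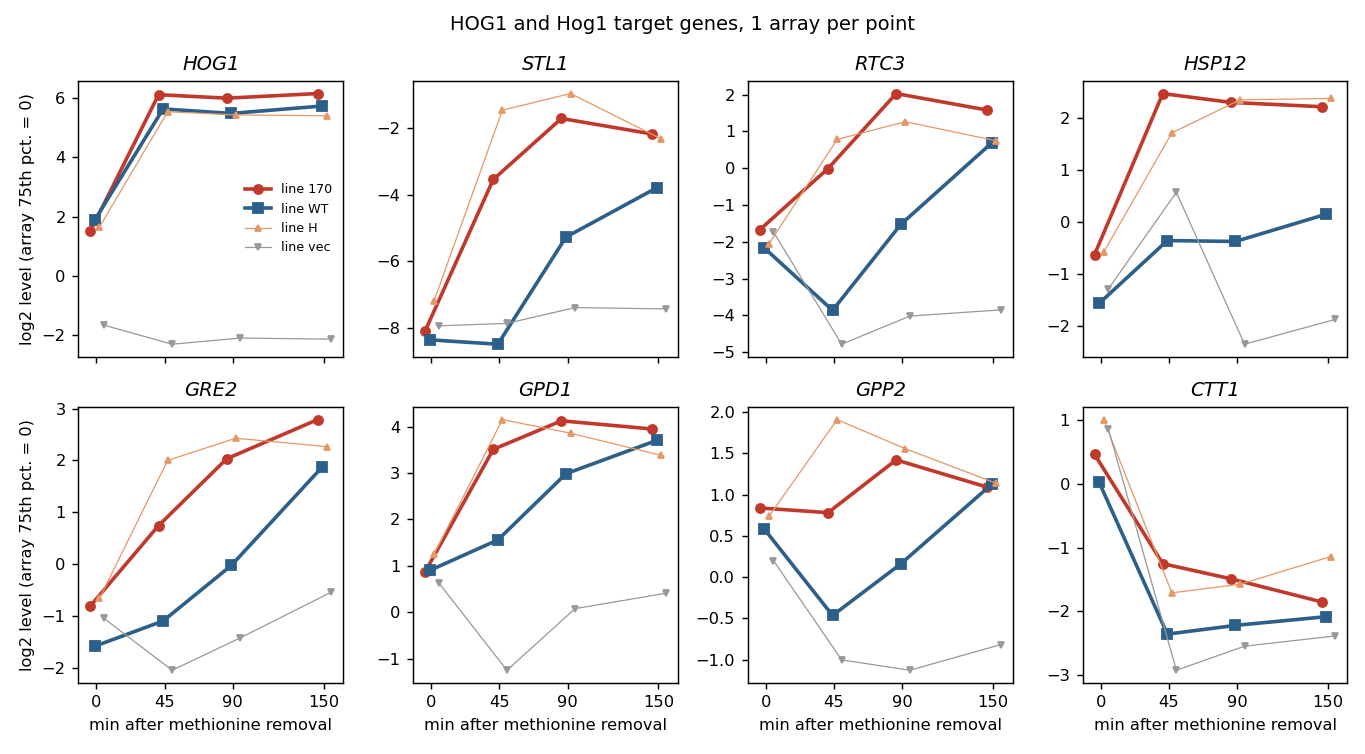
Levels of HOG1 and 7 target genes of Hog1 as log2 intensity relative to the array's 75th percentile (y axis) against minutes after methionine removal (x axis, lines offset slightly to show all points), 1 array per point, with line 170 in red circles, line WT in blue squares, line H in orange triangles and line vec in grey triangles. STL1 in line WT at 45 min (-8.48) was not well above background, and in line 170 it was already at -3.54.

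The glycerol genes were not called, with the exceptions of STL1, DAK1 and ASK10. GPD1 (YDL022W), whose dehydrogenase commits glycolytic carbon to glycerol, stood at 3.51, 4.12 and 3.95 in line 170 and at 1.56, 2.99 and 3.70 in line WT. The difference was 1.95 at 45 min, 1.14 at 90 min and 0.24 at 150 min, and its mean of 1.11 ± 0.45 did not pass (adjusted p = 0.12). GPP2, one of the glycerol-3-phosphatases, differed by 0.83 ± 0.35 (adjusted p = 0.14) and GPP1, its paralog, by 0.30 ± 0.26 (adjusted p = 0.43). At 150 min GPP2 was at 1.09 in line 170 and 1.13 in line WT. Of the 14 genes of glycerol synthesis, breakdown and transport, 3 were higher (21.4%, against 6.88% of all genes) and 0 lower. The 3 were STL1, the dihydroxyacetone kinase gene DAK1 (0.998 ± 0.24, adjusted p = 0.028) and ASK10, a regulator of the glycerol channel (0.44 ± 0.10, adjusted p = 0.026). Without 90 min or 150 min none of the list passed.

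Over the whole list of 28 osmostress targets of Hog1, all 28 differences were above 0, with a median of 0.85 against -0.03 for all genes. By call, 13 were higher and 0 lower, or 46.4% of the list, against 6.88% of all genes called higher. None of the 13 followed the split of the slides. That split needs line vec, with its empty plasmid, above lines WT and H. The list's median level in line vec was -1.36, -1.79 and -1.57 at 45, 90 and 150 min, the lowest of the lines. The count therefore cannot tell line from slide. Besides those above, the 13 included NQM1, a transaldolase (1.50 ± 0.21, adjusted p = 0.0060), ALD3, an aldehyde dehydrogenase (1.32 ± 0.27, adjusted p = 0.015), MSC1 (0.88 ± 0.19, adjusted p = 0.018), GRE1 (0.53 ± 0.089, adjusted p = 0.0085) and the catalase gene CTT1 (0.69 ± 0.20, adjusted p = 0.044). The median difference was 0.87 at 45 min, 1.09 at 90 min and 0.46 at 150 min, and 13, 15 and 6 of the 28 genes were at least 2-fold higher at these times. In 20 of the 28 the difference was larger at 45 min than at 150 min. Before removal the median was 0.32. Without 90 min 0 of the list passed, without 150 min 4 did and without 45 min 12, where RTC3, GRE2 and CTT1 no longer passed, while the median ran from 0.69 to 0.94 over the alternatives.

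Genes that encode the pathway itself were called about as often as genes in general (13.3% of the list, 17.8% of all genes). Of 15 sensors, adaptors and kinases, 0 were higher and 2 lower: SLN1, the osmosensing histidine kinase (-0.36 ± 0.067, adjusted p = 0.012), and OPY2, a membrane anchor of the Sho1 branch (-0.42 ± 0.085, adjusted p = 0.016). Both followed the split of the slides, with 170 minus vec at -0.08 for SLN1 and 0.12 for OPY2, neither called. PBS2, the kinase that activates Hog1, differed by 0.11 and was not called. Among 6 phosphatase genes and their partners, 2 were higher and 1 lower (50% called, against 17.8% of all genes). PTC2 (0.58 ± 0.13, adjusted p = 0.019) and NBP2, an adaptor of Ptc1 (0.34 ± 0.084, adjusted p = 0.028), were higher and PTC3 (-0.28 ± 0.074, adjusted p = 0.035) was lower, where PTC2 followed the split of the slides. Of 8 transcription factors and kinases under Hog1, the protein kinase gene RCK1 stood out in size. RCK1 stood at -0.34, -1.36 and -2.26 in line 170 and at -1.39, -2.52 and -3.24 in line WT, higher by close to the same amount at each time, with a mean of 1.07 ± 0.099 (adjusted p = 0.0014). SMP1, a MADS-box factor, was higher (0.43 ± 0.097, adjusted p = 0.022) and SKO1, a repressor that Hog1 converts to an activator, was lower (-0.42 ± 0.078, adjusted p = 0.012). Without 90 min none of these genes passed.

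General stress genes under Msn2 and Msn4 were also higher as a list, by less. This list shares members with the osmostress targets, HSP12 and ALD3 among them, so the counts of these lists are not separate. Of 44 genes, 16 (36.4%) were higher and 0 lower, with a median difference of 0.44, and 0 of the 16 followed the slides. Of all genes 6.88% were called higher. Line vec had the lowest list median at 45, 90 and 150 min (-1.115, -1.618 and -1.297), so this list could hardly follow the slides. HSP26, a small heat shock protein, stood at -0.06, -0.34 and -0.25 in line 170 and at -1.62, -1.71 and -1.37 in line WT (1.35 ± 0.25, adjusted p = 0.012). In line vec HSP26 stood at -0.30, -1.64 and -0.26, and 170 minus vec was 0.52, not called (adjusted p = 0.16). The repressor gene XBP1 (0.83 ± 0.17, adjusted p = 0.015) and the carbonic anhydrase gene NCE103 (0.70 ± 0.13, adjusted p = 0.011) were called as well. The median before removal was 0.43, about as large as after it. Of the list, 2 passed without 150 min and 0 without 90 min. Trehalose and glycogen genes gave 3 higher of 21 (14.3%, against 6.88% of all genes), and 7 without 45 min. The 3 were TPS1, NTH1 and TPS2, between 0.41 and 0.67.

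Cytosolic chaperone genes under Hsf1 differed at 45 min and hardly afterwards. Their median difference was 0.88 at 45 min, 0.06 at 90 min and 0.04 at 150 min, and in 20 of 21 genes it was larger at 45 min than at 150 min. Only HSP26 of the 21 was called (4.76%, against 17.8% of all genes). The median level of the list at 45 min was 1.25 in line 170 and 0.50 in line WT, and it was 1.32 in line vec and 0.35 in line H. The 2 lines of one slide thus stood together and apart from the 2 lines of the other at this time, and slide and line cannot be told apart here.

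**Figure D2:**
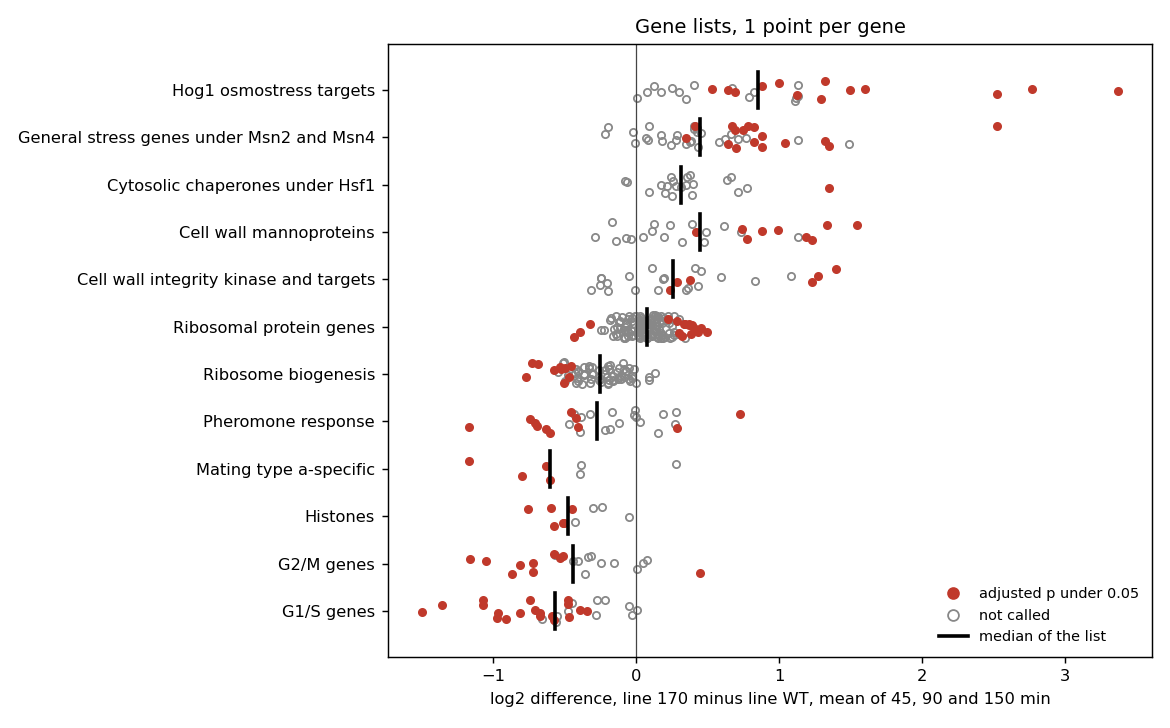
Difference of each gene, line 170 minus line WT as the mean of 45, 90 and 150 min (x axis, log2), for 12 gene lists (rows), with called genes filled, other genes open and the list median as a bar. Hog1 osmostress targets lie above 0 throughout (median 0.85), and G1/S genes lie below 0 with 1 exception (median -0.57).

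Some groups of cell wall genes were higher in line 170. Of 26 mannoprotein genes 9 (34.6%, against 6.88% of all genes) were higher and 0 lower, with a median of 0.45. Genes of glucan and chitin remodelling had no single direction, with 3 higher and 5 lower of 26 and a median of 0.03. That is 30.8% called, against 17.8% of all genes. DAN1, a mannoprotein gene known for expression without oxygen, stood at -6.48, -4.37 and -3.05 in line 170 and at -8.11, -6.58 and -3.85 in line WT (1.55 ± 0.29, adjusted p = 0.012), where the 45 min value was not well above background. It was the 1 call of the list that followed the slides, with 170 minus vec at -0.01 (adjusted p = 0.99). FIT1, which helps to retain iron in the wall (1.33 ± 0.32), UTH1 (0.77 ± 0.12), CWP2 (0.74 ± 0.12) and CCW14 (0.42 ± 0.082) were called too. The list's median was 0.16 at 45 min, 0.63 at 90 min and 0.53 at 150 min, and 10 of the 26 genes had a larger difference at 45 min than at 150 min. Without 45 min 16 passed, without 150 min 1, and without 90 min 0. Of 26 genes of the cell wall integrity kinase and its targets, 6 were higher (23.1%, against 6.88% of all genes) and 0 lower. Among the 6 were KDX1, a pseudokinase paralog of the wall integrity kinase (1.40 ± 0.36, adjusted p = 0.031), and PIR3, a wall glycoprotein (1.27 ± 0.31, adjusted p = 0.028). Without 90 min or without 150 min 0 of them passed. The PAU family holds seripauperin genes of near-identical sequence whose probes may share transcripts. All 24 differences of this family were above 0 (median 0.27). Of the 24, 5 were called (20.8%, against 6.88% of all genes called higher), or 18 without 45 min.

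Several other genes were among the 15 highest. NFG1 (YLR042C), a negative regulator of filamentous growth, had the difference next to that of STL1. NFG1 stood at -3.14, -1.35 and -0.99 in line 170 and at -5.72, -4.69 and -3.62 in line WT, a difference of 2.85 ± 0.40 (adjusted p = 0.0057) that was at least 2.59 at every time. THI4 of thiamine synthesis (1.45 ± 0.36), AFB1 (1.37 ± 0.41) and MPC3, a subunit of the mitochondrial pyruvate carrier (1.33 ± 0.38), completed the group with HSP32 (1.40 ± 0.17). HSP32, HSP33 and SNO4 are near-identical genes, and their differences of 1.40, 1.01 and 1.23 may come from shared transcripts. In the filamentous growth list of 15 genes, 3 were higher and 4 lower (46.7% called, against 17.8% of all genes), so it had no single direction.

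**Figure D3:**
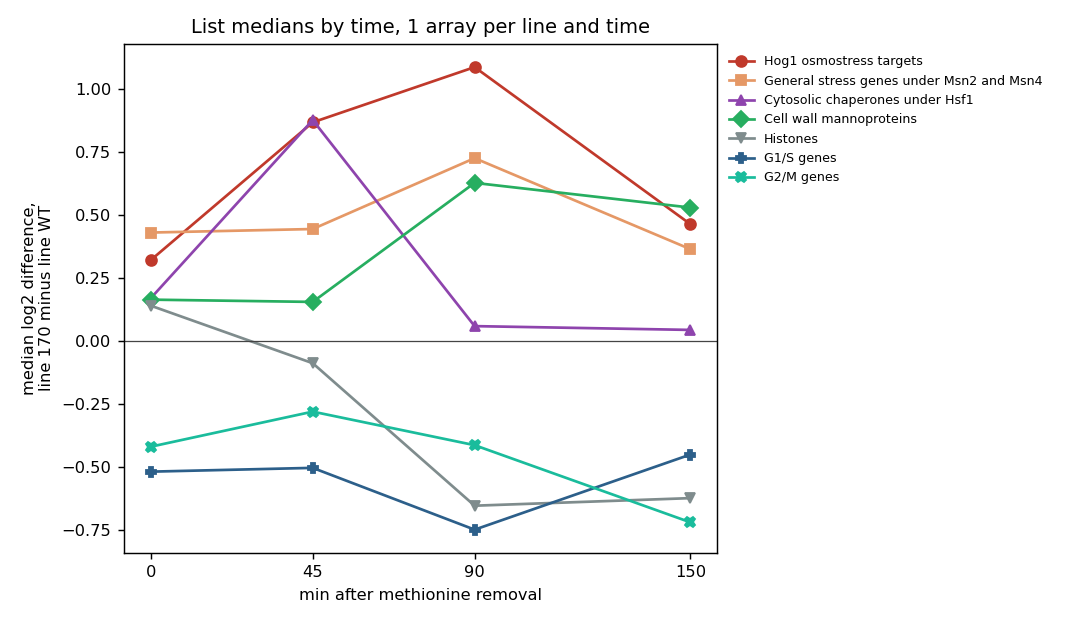
Median difference of 7 gene lists, line 170 minus line WT (y axis, log2), before removal (0 min) and at 45, 90 and 150 min after it (x axis), with 1 array per line and time. The osmostress median was highest at 90 min (1.09), chaperones differed at 45 min (0.88), and G1/S genes were at -0.52 already at 0 min.

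Cell cycle genes were lower in line 170. Of 30 G1/S genes, 19 (63.3%, against 10.9% of all genes) were lower and 0 higher, with a median of -0.57, and 29 of the 30 differences were below 0. RAD27, the flap endonuclease of lagging strand synthesis, stood at -2.22, -1.93 and -2.67 in line 170 and at -0.87, -0.32 and -1.14 in line WT (-1.50 ± 0.12, adjusted p = 7.3e-04). Its arrays did not overlap between the lines. The S-phase cyclin gene CLB6 (-1.36 ± 0.32, adjusted p = 0.024), the G1 cyclin gene CLN1 (-1.07 ± 0.19, adjusted p = 0.011) and the Pho85 cyclin gene PCL1 (-1.07 ± 0.26, adjusted p = 0.026) were lower too. The cohesin gene MCD1 (-0.91 ± 0.14), the primase gene PRI2 (-0.59 ± 0.081) and the polymerase gene POL1 (-0.67 ± 0.11) followed. None of the 19 followed the split of the slides, which would need line vec below lines WT and H. The list's median in line vec was -0.82, -0.78 and -1.12 at 45, 90 and 150 min. In line H it was lower, at -1.67, -0.91 and -1.58, so this count cannot tell line from slide. The list was about as low before removal, at a median of -0.52. Without 150 min 1 of the list passed and without 90 min 0.

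Of 21 G2/M genes 9 were lower and 1 higher (47.6% called, against 17.8% of all genes), with a median of -0.44. The median was -0.42 at 0 min, -0.28 at 45 min, -0.41 at 90 min and -0.72 at 150 min. CLB2, the main mitotic cyclin gene, stood at -4.69, -4.04 and -3.44 in line 170 and at -3.94, -2.84 and -1.91 in line WT. It climbed in both lines, and line 170 was lower by a growing amount (-0.75, -1.20 and -1.53, mean -1.16 ± 0.19, adjusted p = 0.0079). Before removal CLB2 stood at -7.02 in line 170 and -6.85 in line WT. SWI5, the transcription factor of late mitosis, stood at -4.03, -3.49 and -2.97 in line 170 and at -3.32, -2.51 and -1.49 in line WT (-1.05 ± 0.16, adjusted p = 0.0068), and the difference at 0 min was -1.16. SPO12 of mitotic exit (-0.87 ± 0.11) and the activator gene NDD1 (-0.72 ± 0.14) were also lower, and CDC15 was the higher one (0.45). In the Swi5 list 3 of 12 genes were lower (25%, against 10.9% of all genes), namely CDC6, PCL2 and RME1. Neither of these lists gave a lower call without 90 min or without 150 min.

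Histone genes parted from the other cell cycle lists in their timing. The median difference of the 10 genes was 0.14 before removal and -0.09 at 45 min, then -0.65 at 90 min and -0.62 at 150 min. HTB2 stood at -0.76, 0.61 and 0.28 in line 170 and at -0.59, 1.69 and 1.28 in line WT (-0.76 ± 0.17, adjusted p = 0.020). By call 6 were lower (60%, against 10.9% of all genes), among them HTB1, HHT1 and HHF2, and 0 higher. Histone gene pairs are close copies, so values of single copies are uncertain. Without 45 min 8 passed, and without 90 min or without 150 min 0.

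**Figure D4:**
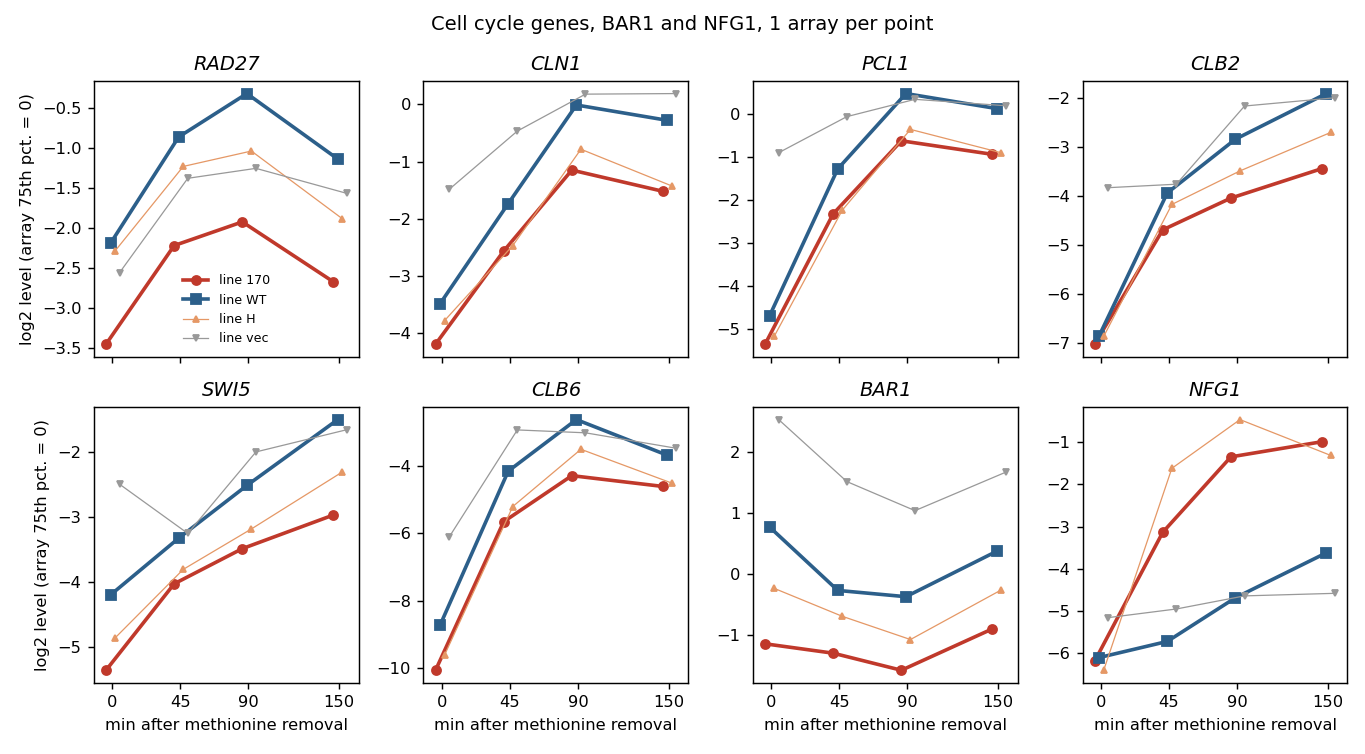
Levels of 6 cell cycle genes, BAR1 and NFG1 as log2 intensity relative to the array's 75th percentile (y axis) against minutes after methionine removal (x axis, lines offset slightly), 1 array per point, in the same colours and markers as the plot of target genes. RAD27 and BAR1 were lower in line 170 at all 4 times, while CLB2 was near line WT at 0 min (-7.02 in line 170 and -6.85 in line WT) and moved away from it later.

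Mating genes of the a type were lower in line 170, before removal as well as after it. Of 7 a-specific genes 4 were lower (57.1%, against 10.9% of all genes), with a median of -0.61 after removal and -1.29 at 0 min. BAR1, the protease that degrades α-factor, stood at -1.30, -1.58 and -0.90 in line 170 and at -0.27, -0.37 and 0.38 in line WT (-1.17 ± 0.095, adjusted p = 7.3e-04), and at 0 min at -1.14 in line 170 and 0.78 in line WT. Its change from 0 min was not called (0.75, adjusted p = 0.29). The a-factor exporter gene STE6 (-0.80 ± 0.14) and the a-factor genes MFA2 (-0.63 ± 0.14) and MFA1 (-0.60 ± 0.16) were lower as well. Of 28 genes of the pheromone response tested, 9 were lower and 2 higher (39.3% called, against 17.8% of all genes). BAR1 is on this list as well as on the a-specific one. STE12, the factor that activates them (-0.42 ± 0.086), and FUS2 of cell fusion (-0.69 ± 0.075) were lower and PRM8 was higher (0.73 ± 0.15). Of the a-specific and of the pheromone list 1 each passed without 150 min and 0 without 90 min.

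Growth and biosynthesis genes differed by small amounts. Of 70 ribosome biogenesis genes, 10 were lower (14.3%, against 10.9% of all genes) and 0 higher, and 67 differences were below 0 (median -0.25), with examples in CBF5, a pseudouridine synthase (-0.68 ± 0.092), NOP58 of box C/D particles (-0.47 ± 0.074) and the GTPase gene NOG1 (-0.77 ± 0.18). CBF5, NOP58 and RRP14 followed the split of the slides. Without 45 min 25 passed and without 90 min or without 150 min 0. Ribosomal protein genes (136) gave 14 higher and 3 lower calls, or 12.5% called, below the 17.8% of all genes. Their median of 0.07 lies near that of all genes and changed sign over the alternatives (-0.02 to 0.12). Of these 17 calls, 13 followed the slides. Ergosterol genes gave 4 lower of 26 (15.4%, against 10.9% of all genes), namely ERG7, ERG5, ERG3 and ERG25, between -0.79 and -0.47. Glycolysis genes gave 2 higher of 18 (11.1%, against 6.88% of all genes), PDC1 (0.48 ± 0.092) and GPM1 (0.60 ± 0.16). Both followed the slides, with 170 minus vec at -0.06 and -0.56. Both calls were lost under quantile normalization. The list's median was -0.81 before removal and 0.20 after it. Of 37 genes of sulfate assimilation and methionine synthesis, which methionine removal itself induces, 1 was higher and 1 lower. That is 5.41% called, below the 17.8% of all genes. The higher one was STR2 (0.46 ± 0.12). The lower one was MET4, the pathway's activator (-0.53 ± 0.12), which followed the slides.

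The other lowest genes were mostly faint. NDJ1, a meiotic telomere gene, stood at -5.66, -6.39 and -6.85 in line 170 and at -4.13, -4.92 and -5.36 in line WT (-1.50 ± 0.12, adjusted p = 7.3e-04). DIP5, a permease of acidic amino acids, was well expressed and differed by -1.42 ± 0.31, with -1.12, -2.32 and -1.86 in line 170 and 0.04, -0.27 and -0.80 in line WT. The peroxisomal acyl-CoA oxidase gene POX1 (-1.18 ± 0.25) and the repair scaffold gene RTT107 (-1.09 ± 0.098) were lower. PGU1, a secreted pectinase gene, was not well above background on any array of line 170. Its measured means were -9.17 in line 170 and -8.09 in line WT (adjusted p = 0.012). With values under the array's floor raised to it, PGU1 was 1.69-fold lower in line 170. Its call was lost with normexp and with quantile normalization, among others, and the difference shrank to -0.03 over the alternatives. AI4, an intron-encoded gene of mitochondrial DNA (-1.58 ± 0.11), was not well above background in line 170 at 45 min, HXT14 at 90 and 150 min and PFS1 at 150 min. With those values raised to the array's floor the mean differences were -0.77 for HXT14 and -0.93 for PFS1, and both calls were lost with normexp (down to -0.16 and -0.27).

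Before removal, the genes called lower differed in their later direction more often than the genes called higher. At 0 min 610 of the 672 lower genes (90.8%) and 325 of the 424 higher genes (76.7%) had the sign they had later, against 68.3% of all genes. At least 50% of the later difference was present at 0 min in 26 of the 33 genes called at 2-fold lower, RAD27 (-1.26) and BAR1 (-1.92) among them, and in 9 of the 48 called at 2-fold higher. Over all calls this held for 459 of 672 lower genes (68.3%) and 189 of 424 higher genes (44.6%), against 53.7% of all genes. STL1 differed by 0.27 at 0 min, NFG1 by -0.09 and RTC3 by 0.50. When the change from 0 min was tested, line 170 against line WT, limma called 0 of 6165 genes (0%), and 490 had an unadjusted p under 0.05. The estimate for STL1 was 3.10 ± 1.63 (adjusted p = 0.68) and for CLB2 -0.99 ± 0.38 (adjusted p = 0.54). This test rests on 1 array per line at 0 min. Background-corrected values (normexp) gave 5 calls and quantile normalization 10.

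**Figure D5:**
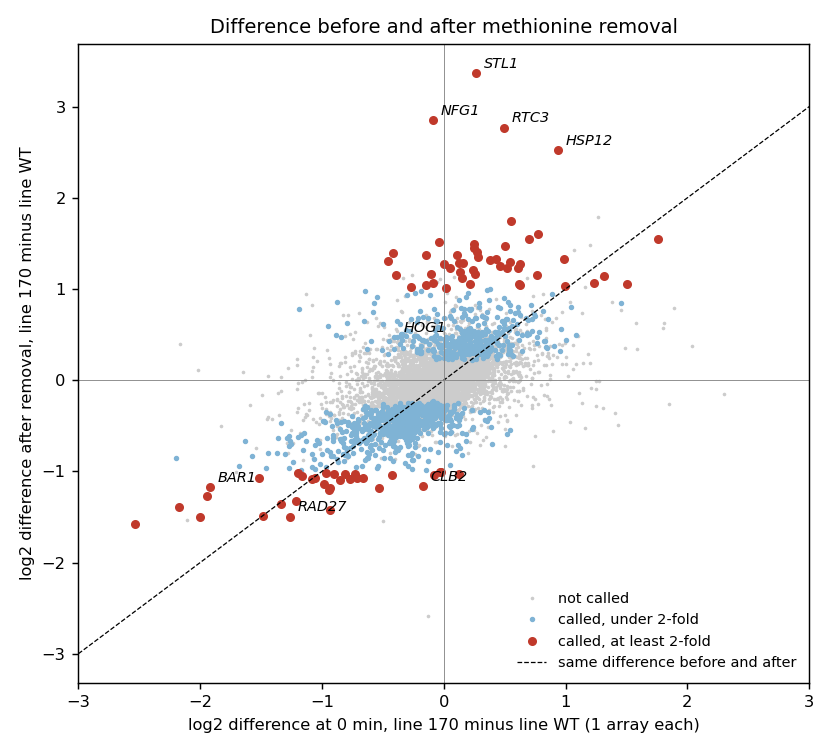
Difference after methionine removal (y axis, log2, mean of 45, 90 and 150 min) against the difference at 0 min (x axis, log2, 1 array each), line 170 minus line WT, 1 point per gene. STL1, NFG1 and RTC3 differed by 0.50 or less before removal and by 2.77 or more after it, while RAD27 and BAR1 lie near the dashed line of equal differences or beyond it.

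Set beside line H on the other slide, the same arrays of line 170 showed no called difference in the osmostress targets. In the fit of 170 minus H, 1013 genes (16.4%) were called, and 0 of the 28 osmostress targets, whose differences ran from -0.89 to 0.58 with a median of -0.02 and a lowest adjusted p of 0.21. STL1 stood at -1.47, -0.97 and -2.33 in line H, against -3.54, -1.72 and -2.18 in line 170, and the difference of -0.89 ± 0.81 was not called. RAD27 in line 170 differed from line H by -0.89 (adjusted p = 0.0050) and from line vec by -0.87 (adjusted p = 8.2e-04), while CLN1 differed from line H by -0.18 (adjusted p = 0.54). Line 170 exceeded line H in HOG1 by 0.63 (adjusted p = 0.0062). The array's 75th percentile, to which levels are relative, was higher in line H at 45, 90 and 150 min. It was 9080, 11306 and 8710 there, against 5940, 6376 and 6118 in line 170. Whether the unscaled HOG1 intensity differed was not tested. Of the 136 ribosomal protein genes, 73 were higher than in line H and 0 lower, with a median of 0.33. Of all genes 6.68% were called higher than in line H, and this comparison too crosses the slides. Without 90 min 1 gene in all was called against line H, and without 150 min 2. Against line vec on its own slide, line 170 differed in 2003 genes (32.5%). Of all 6165 genes tested, 989 were called higher and 1014 lower. Of the 28 osmostress targets, 20 were higher and 1 lower (median 1.22). All 10 histone genes were lower (median -1.08), as were 25 of 30 G1/S genes (median -0.66). These comparisons share the arrays of line 170 and are not independent of each other.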

How the data were processed

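Total RNA of 4 lines at 0, 45, 90 and 150 min was measured on Agilent single-colour yeast arrays, 1 per line and time. Per the file headers, signals come from Agilent Feature Extraction 10.7.1.1, and the deposited processed intensity is background-subtracted and detrended, not scaled between arrays. Per the labels, RNA was labelled with Cy3. The log2 intensity, averaged over a probe's spots, minus the array's 75th percentile was used. Genes well above background on 3 or more of the 16 arrays were tested, 6165 of 6227, the brightest probe standing for the 28 genes with several. In all, 5740 systematic names matched RefSeq, used for names only, since its assembly differs from that of the headers. The deposited value table is centred and was not used.

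Differences came from moderated two-sided tests (limma 3.58.1, lmFit with eBayes, under R 4.3.3), adjusted by Benjamini-Hochberg over all genes, on the 12 arrays after removal, with terms for time and line. The change from 0 min used all 16 arrays and added to time and line their interaction with later times. All lines entered so that they share 1 estimate of spread. The fits were tested on simulated arrays. Precision is limited by how few arrays there are.

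Named genes are HOG1, MET3, known Hog1 targets, the 15 highest and 15 lowest called genes with a symbol, 1 sign at all times and detection (well above background) on 1 or more of 6 arrays, and up to 4 members per described list by lowest p. Others named (PBS2, CDC15, HSP33, SNO4) were chosen after their values were seen. Some lists share members. The comparison, members and lists were chosen with earlier results of these data known. Alternatives changed background correction, scaling, filter, probes, variance model, threshold, terms, and the lines and times in the fit, and 1, chosen after seeing the data, raised values not above background to the array's floor. No sequences are shown because none were given.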

Additional observations from a re-analysis of the deposited data

How the results depend on the processing

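Of 6165 genes, 1096 differed between line 170 and line WT. The count was 187 at a threshold of 0.01, 49 without the time term, 595 without line H, 0 without 90 min (861 at an unadjusted p under 0.05) and 34 without 150 min. Of these genes 187, 49, 573, 0 and 32 were among the 1096 with the same sign. Other alternatives gave 797 to 1639. Line 170 was the higher one in 38.7% of calls. Over the alternatives with any call this share ran from 24.1% (threshold of 0.01) to 48.5% (median scaling). Against line H, 1013 were called, 1 without 90 min and 2 without 150 min, and the higher share of 40.7% became 57.9% (normexp), 52.5% (median scaling) and 50.8% (quantile). Against line vec, 2003 were called, 577 without 90 min and 1107 without 150 min. The change from 0 min gave 0 calls, 5 with normexp and 10 with quantile normalization. The causes were not tested, beyond fewer arrays where times or lines were left out. URA3 (0.36) reversed under quantile normalization (-0.043) and SPO74 (-0.93), not well above background on any array of line 170, with normexp (0.11). Leaving out times leaves 2 arrays a line. The time term pairs the lines by time, and the labels give no replicate numbers.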

Other observations

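A pair of genes without a symbol in the higher group carry systematic names next to those of target genes. YFL015C (1.75 ± 0.29, adjusted p = 0.0089) is numbered beside HSP12 (YFL014W), and YDR535C (1.37 ± 0.40, adjusted p = 0.047) beside STL1 (YDR536W). Whether their probes read the neighbour's transcript was not tested.

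Among the 33 genes called at 2-fold lower, 12 had lines 170 and vec both below lines WT and H at all 3 times, the split of the slides, against 1 of the 48 called at 2-fold higher (DAN1). Over calls of any size the shares were 36.6% lower and 38% higher. Of these 12, 9 had no symbol, against 5 of the other 21, and their mean levels in line 170 ran from -9.62 to -5.49. AI4, HXT14 and PGU1 were the named ones. RAD27, BAR1, CLB2, CLN1 and SWI5 were not among them.

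The selectable marker gene URA3 stood at 6.52, 6.31 and 6.32 in line 170 and at 6.09, 5.91 and 6.08 in line WT (0.36 ± 0.10, adjusted p = 0.042), a difference that followed the split of the slides, and LEU2 was not called. The array's 75th percentile, to which these levels are relative, was lower in line 170 than in line WT at each of these times. Whether the unscaled URA3 intensity differed was not tested. HIS3 was well above background on 1 of 16 arrays. Mitochondrially encoded ATP8 (-0.61 ± 0.073, adjusted p = 0.0032) and COB (-0.41 ± 0.080, adjusted p = 0.014) were lower in line 170, both along the slides. Of 8 mitochondrial genome genes 6 were not called (25% called, against 17.8% of all genes). Of 67 mitochondrial ribosomal protein genes, 8 were higher and 2 lower (14.9% called, against 17.8% of all genes). Their median was 0.09, and 7 of these 10 followed the slides. None of the 20 genes of the phosphate regulon and none of the 19 of purine synthesis were called by limma.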
